A study of Homo sapiens with 12 samples.

Results

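The genes described here are those of the human mitochondrial genome, chosen as every row of the deposited count table that lies on chrM: 37 of 59251 genes, of which 13 encode proteins, 2 encode ribosomal RNAs and 22 encode transfer RNAs. They were measured by RNA-Seq in HL60 cells, an acute myeloid leukemia line listed in the labels as HL-60, grown in RPMI1640 with FBS. The 4 groups, of 3 libraries each, were non-treated cells, cells given all-trans retinoic acid (ATRA, 1 µM) over 48 h, cells given palbociclib, an inhibitor of CDK4 and CDK6 (CDK4/6i, 1 µM), over 48 h, and cells given both drugs over 48 h (CDK4/6i+ATRA). All groups come from this single line, and the labels call the libraries of a group biological replicates. The comparisons ask how the transcripts of the mitochondrial genome changed with either drug, with both, and with both relative to the sum of the single-drug changes.

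The mitochondrial genome is a small circle whose strands are each transcribed into long RNAs that span many genes. Transfer RNA genes lie between most of the others, and their excision releases the mRNAs and rRNAs, most of which are then polyadenylated. Its protein-coding genes all specify subunits of the respiratory chain and ATP synthase, whereas the polymerase, the processing enzymes, the ribosomal proteins and the remaining subunits are made from nuclear genes. Myeloid cells change their metabolism as they mature, and HL60 cells treated with ATRA are a standard model of that maturation.

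Gene symbols are given as in the count table, without the MT prefix. The 2 rRNA genes are RNR1 (chrM:648-1601) and RNR2 (chrM:1671-3229) of hg38, both on the forward strand of the reference. ND6 was the only mRNA gene annotated on the other strand, which also held 8 of the 22 tRNA genes. Of the 13 coding sequences, 6 end in an incomplete stop codon (ND1 in TA, and ND2, COX3, ND3, ND4 and CYTB in T), which polyadenylation completes in the mature mRNA. The tRNA genes are printed where their counts bear on a result. TRNP, TRNN and TRNC held most of the counts assigned to tRNA genes, and each borders a stretch with no annotated gene. The sequences were read from hg38 in the direction of the gene, here the minus strand, with the anticodon in capitals and T for U.
TRNP (proline tRNA gene, chrM:15956-16023): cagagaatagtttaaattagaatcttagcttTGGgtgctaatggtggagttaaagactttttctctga
TRNN (asparagine tRNA gene, chrM:5657-5729): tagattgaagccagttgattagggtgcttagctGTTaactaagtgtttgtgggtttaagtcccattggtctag
TRNC (cysteine tRNA gene, chrM:5761-5826): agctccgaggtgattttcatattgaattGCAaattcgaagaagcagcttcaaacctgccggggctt
The stretch of 31 bases between TRNN and TRNC, which includes the origin of light-strand replication, is shown on the same strand because it lies between the TRNN and TRNC genes.
gap between TRNN and TRNC (chrM:5730-5760): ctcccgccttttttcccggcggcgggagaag
Some neighbouring coding sequences overlap. ATP8 and ATP6 share 46 bases, shown with the start codon of ATP6 and the stop codon of ATP8 in capitals. ND4L and ND4 share 7 bases, and ATP6 and COX3 share 1.
overlap of ATP8 and ATP6 (chrM:8527-8572, plus strand): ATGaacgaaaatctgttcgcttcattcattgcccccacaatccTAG

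Total counts ranged from 12230923 to 18679544 per library, so that 3 counts, taken as the floor of detection, correspond to 0.161 to 0.245 CPM (counts scaled to library size). Within each group the libraries varied beyond counting noise. The 8 myeloid markers examined summed to 7114 to 7465 CPM in non-treated cells and 958 to 1008 after ATRA. They summed to 4120 to 4250 CPM after CDK4/6i and 1033 to 1083 with both drugs. With both, 3 of the 5 tested fell and 1 rose by the test described below, beside 40.7% and 41.0% of all tested genes. Of these markers, MPO averaged 6517 CPM in non-treated cells and 28.0 CPM after CDK4/6i+ATRA, SPI1 and CD33 were present in every group, and ELANE, AZU1 and PRTN3 were listed at 0 counts in every library. These 3 genes are annotated both on their chromosome and on an alternate contig in the count table, and whether reads were lost for this reason was not tested. Among markers of other cell types, MS4A1, HBB, HBA1 and EPCAM were among those with no count in any library. Lymphoid markers, nearly all of it CD79A, summed to 16.9 to 20.5 CPM in non-treated cells and 24.7 to 27.0 after ATRA. They summed to 25.5 to 27.0 CPM after CDK4/6i and 13.1 to 17.2 with both drugs. Erythroid and megakaryocyte markers summed to 1.74 to 2.93 CPM in non-treated cells and 8.20 to 10.5 CPM with both drugs, nearly all of it ITGA2B, and epithelial and stromal markers to 23.5 to 25.3 and 14.4 to 17.7 CPM, nearly all of it PECAM1. Their part in the results was not tested. A library that stands apart for the mitochondrial genes is non-treated replicate 3, as described next. Levels below are CPM after TMM normalization in edgeR, fold changes come from its quasi-likelihood fit to all 12 libraries, and a gene was called changed at a Benjamini-Hochberg adjusted p-value under 0.05 over the 13318 genes that passed the expression filter. The comparisons with non-treated cells share the same 3 control libraries.

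The mitochondrial genome took a larger share of the RNA-Seq counts when both drugs were given. All 37 genes together held 2.00%, 1.90% and 2.79% of the counts in the non-treated libraries. They held 3.18%, 3.92% and 2.79% after ATRA, 2.75%, 2.73% and 2.42% after CDK4/6i, and 4.64%, 6.04% and 6.09% after CDK4/6i+ATRA. Every CDK4/6i+ATRA library was therefore above every library of the other groups, while the ATRA and non-treated libraries met at 2.79%. The group means were 2.23% ± 0.488 in non-treated cells, 3.30% ± 0.575 after ATRA, 2.63% ± 0.182 after CDK4/6i and 5.59% ± 0.827 after CDK4/6i+ATRA (SD, n = 3 each), which is 1.48, 1.18 and 2.50 times the non-treated mean for the treated groups in this order. A larger share may reflect more mitochondrial RNA per cell or less nuclear-encoded RNA, and these cannot be told apart in bulk libraries, nor can fewer cells with much of it and less of it per cell.

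**Figure D1:**
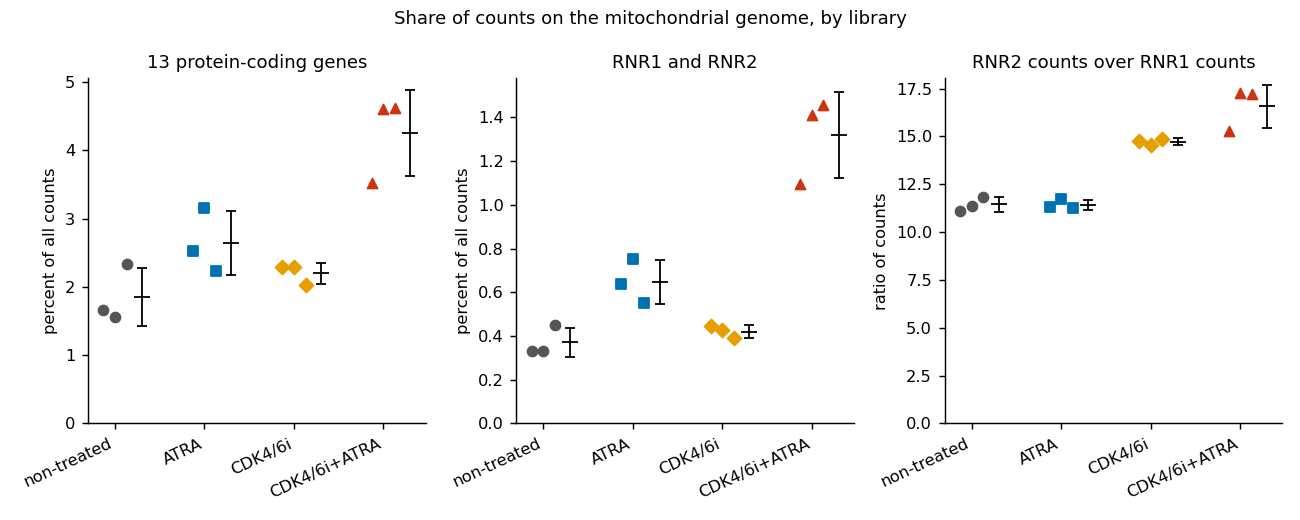
Percent of all counts on the 13 protein-coding genes (left) and on RNR1 and RNR2 (middle) of the mitochondrial genome, and RNR2 counts divided by RNR1 counts (right), with one point per library and the group mean ± SD (n = 3) in black. The CDK4/6i+ATRA libraries lie above all others for the mRNAs (3.53% to 4.62%) and the rRNAs (1.09% to 1.46%), and the RNR2 to RNR1 ratio is higher in the groups given CDK4/6i.

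RNAs abundant in the nucleus or mostly not polyadenylated, whose counts can depend on RNA selection and on the cells, were also higher in sum after CDK4/6i+ATRA. The summed level of 7 such RNAs was 25.1 to 26.8 CPM in non-treated cells, 23.1 to 29.1 after ATRA, 18.7 to 25.8 after CDK4/6i and 52.7 to 67.4 after CDK4/6i+ATRA. Of the 7, RN7SL2 had no count, MALAT1 averaged 9.11 CPM in non-treated cells and 24.9 with both drugs, NEAT1 1.46 and 14.9, and RN7SL1 10.6 and 10.7. The part of RNA selection in the rise of the mitochondrial transcripts was not tested.

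Of the 37 genes, 20 passed the expression filter: all 13 mRNA genes, both rRNA genes and 5 tRNA genes. Under CDK4/6i+ATRA, all 20 were called higher than in non-treated cells, in a comparison where 81.7% of all tested genes were called and 41.0% were called higher. Their 3 libraries also lay above all 3 non-treated libraries for each of the 20 genes, which held in this direction for 41.1% of all tested genes. The median log2 fold change was 1.33 for the 13 mRNAs (2.51-fold, with a range of 1.95-fold to 3.60-fold), against 0.02 for all tested genes. With ATRA alone, 15 were called higher and 1, TRNP, lower (67.6% of all tested genes called, 32.1% higher and 35.5% lower). With CDK4/6i alone, 6 were called higher and 1, RNR1, lower (56.2% called, 28.3% higher and 27.9% lower). Relative to either single drug, CDK4/6i+ATRA raised all 20: against CDK4/6i 78.6% of all tested genes were called and 39.1% were higher, and against ATRA 69.8% were called and 36.9% were higher. The CDK4/6i+ATRA libraries lay above all CDK4/6i libraries for 19 of the 20 genes, TRNP being the exception, and above all ATRA libraries for 20 (39.0% and 37.9% of all tested genes). Log2 fold changes of the 13 mRNAs had medians of 1.17 relative to CDK4/6i and 0.89 relative to ATRA.

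**Figure D2:**
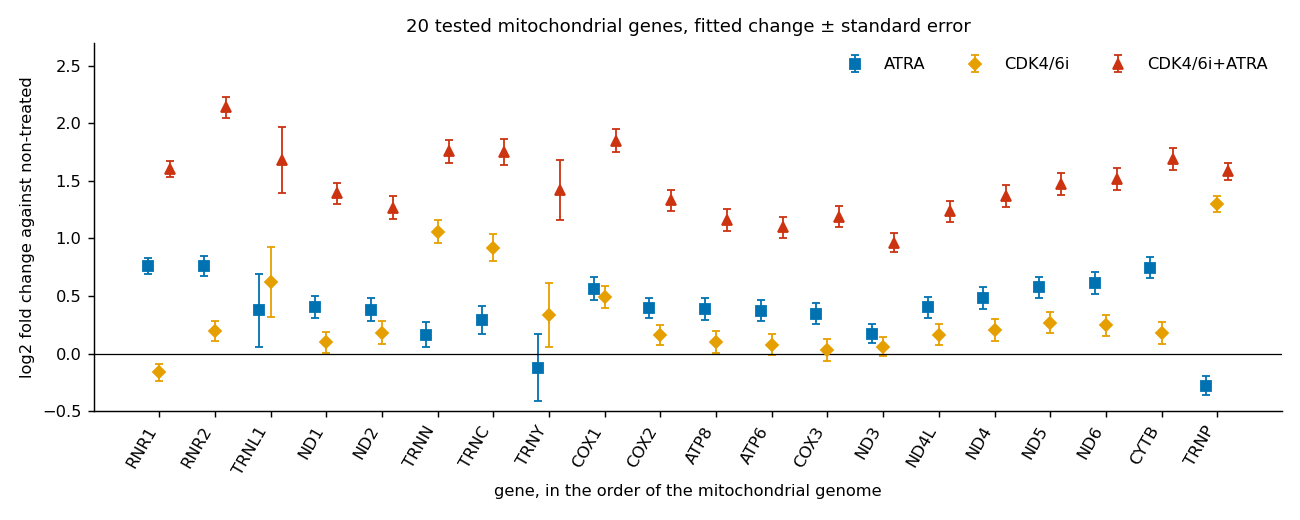
Fitted log2 fold change against non-treated cells, ± standard error, for the 20 tested genes in their order on the mitochondrial genome (x axis) after ATRA, CDK4/6i and CDK4/6i+ATRA, with 3 libraries per group. All CDK4/6i+ATRA values lie between 0.96 (ND3) and 2.14 (RNR2), while those of CDK4/6i alone are near 0 for most mRNAs and reach 1.30 for TRNP.

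The calls with single drugs differed between methods, for reasons that were not tested. COX1, for example, had an SD of 1008 CPM around a mean of 4336 CPM in non-treated cells, and edgeR's ordinary fit draws each gene's spread toward that of other genes at its level. In a fit that lets genes of high spread keep their own (edgeR's robust option, added after the data were seen), 7 genes were called with ATRA and 3 with CDK4/6i, where it called 67.7% and 56.2% of all tested genes. DESeq2 called 10 and 4 of the 20, and 64.3% and 52.7% of all tested genes. The 20 calls of each CDK4/6i+ATRA comparison were made by all 3 methods. Without non-treated replicate 3, 17 genes were called with CDK4/6i, all higher (52.3% of all tested genes called). Without CDK4/6i replicate 2 there were 4 (51.5%), and without CDK4/6i replicate 3 or CDK4/6i+ATRA replicate 1 there were 12 (51.5% and 55.8%).

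RNR2, which encodes the 16S rRNA of the large ribosomal subunit, had the largest rise of the 20 genes when both drugs were compared with none. Its level was 2983, 2945 and 3943 CPM in non-treated cells, 5522, 6476 and 4736 after ATRA, 4027, 3817 and 3460 after CDK4/6i, and 11512, 15579 and 16386 after CDK4/6i+ATRA. ATRA and CDK4/6i+ATRA libraries were all above the non-treated ones, whereas those of CDK4/6i overlapped them. The log2 fold change was 0.76 (SE 0.09, edgeR adjusted p = 7.5e-11) after ATRA, 0.20 (SE 0.09, edgeR adjusted p = 0.0508) after CDK4/6i and 2.14 (SE 0.09, edgeR adjusted p = 5.62e-27) with both, a 4.40-fold rise.

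RNR1, which encodes the 12S rRNA of the small subunit, was at 268, 259 and 333 CPM in non-treated cells and at 488, 552 and 421 CPM after ATRA. It was at 273, 263 and 233 CPM after CDK4/6i and at 754, 904 and 952 CPM after CDK4/6i+ATRA. CDK4/6i libraries overlapped or lay below the non-treated ones, and the ATRA and CDK4/6i+ATRA libraries lay above them. The log2 fold changes were 0.76 (SE 0.07) after ATRA, -0.16 (SE 0.07, edgeR adjusted p = 0.0453, not called by DESeq2 or the robust fit) after CDK4/6i and 1.60 (SE 0.07) with both.

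The 2 rRNAs, which are cut from the same precursor, thus did not keep one proportion. RNR2 counts divided by RNR1 counts gave 11.4 ± 0.372 in non-treated cells, 11.4 ± 0.262 after ATRA, 14.7 ± 0.175 after CDK4/6i and 16.6 ± 1.12 after CDK4/6i+ATRA (SD, n = 3 each). The 6 libraries given CDK4/6i, at 14.5 to 17.2, lay above the 6 libraries without it, at 11.1 to 11.8. This ratio is formed within a library and does not depend on the normalization. RNR1 shared 21.2% of its 100-base windows exactly with a nuclear chromosome and RNR2 shared none. The part of reads lost to such copies in this ratio was not tested.

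Complex I, the NADH dehydrogenase, has 7 of its subunits encoded here. In CDK4/6i+ATRA against non-treated cells, log2 fold changes were 1.52 for ND6, 1.48 for ND5, 1.39 for ND1, 1.37 for ND4, 1.27 for ND2, 1.23 for ND4L and 0.96 for ND3. ND5 was at 1003, 950 and 1488 CPM in non-treated cells, 1601, 2037 and 1490 after ATRA, 1417, 1444 and 1288 after CDK4/6i, and 2638, 3492 and 3443 after CDK4/6i+ATRA. ND5, ND6 and CYTB were the mRNAs with all ATRA libraries above the non-treated ones, as were 33.3% of all tested genes in this direction. Counting both rRNAs and TRNP, which was lower, 6 of the 20 genes did not overlap, against 70.3% of all tested genes in either direction.

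ND3, the mRNA with the smallest rise, was at 530, 546 and 661 CPM in non-treated cells and at 656, 705 and 598 CPM after ATRA. It was at 698, 590 and 523 CPM after CDK4/6i and at 873, 1153 and 1359 CPM after CDK4/6i+ATRA. Only the CDK4/6i+ATRA libraries stood clear of the non-treated ones. The log2 fold change with both drugs was 0.96 (SE 0.08, edgeR adjusted p = 7.02e-15), and ATRA alone gave 0.17 (SE 0.08, edgeR adjusted p = 0.0629).

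ND6 is transcribed from the opposite strand to the other mRNAs. Its level was 259, 244 and 353 CPM in non-treated cells, 404, 535 and 374 after ATRA, 355, 353 and 309 after CDK4/6i, and 644, 906 and 902 after CDK4/6i+ATRA. Relative to the summed counts of the 12 other mRNAs, ND6 held 1.63% ± 0.0168 in non-treated cells, 1.79% ± 0.0591 after ATRA, 1.64% ± 0.0133 after CDK4/6i and 1.68% ± 0.0292 after CDK4/6i+ATRA (SD, n = 3 each). ND6 counts therefore rose nearly in step with those of these mRNAs, and the ATRA libraries, at 1.73% to 1.84%, were the highest. This holds for ND6 alone, since tRNA genes of the same strand, described below, changed otherwise. Against ND5 alone, its neighbour on the genome, ND6 stood at 25.1% in non-treated cells and 25.5% after ATRA, a difference within the SD of 1.17 percentage points. Reads of the strands may have been counted together, since the counting is not stated to use strand. Genes wholly within exons of a well-counted gene on the opposite strand had no count (0 of 94), as on the same strand (0 of 422). ND6 counts may thus include RNA of the other strand, and its part was not tested.

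CYTB is the only subunit of complex III encoded in the mitochondrion. Its level was 861, 815 and 1242 CPM in non-treated cells, 1564, 1936 and 1395 after ATRA, 1157, 1142 and 1005 after CDK4/6i, and 2537, 3422 and 3445 after CDK4/6i+ATRA. The ATRA libraries were all above the non-treated ones, and those of CDK4/6i were within their range. Log2 fold changes were 0.75 (SE 0.09, edgeR adjusted p = 8.73e-10) after ATRA, the largest of the 13 mRNAs, 0.18 (SE 0.09, edgeR adjusted p = 0.0985) after CDK4/6i, and 1.69 (SE 0.09, edgeR adjusted p = 7.53e-22) with both. Relative to the summed mitochondrial mRNAs, in a fit described below, CYTB was not called with ATRA, at 0.28 (SE 0.19, edgeR adjusted p = 0.195).

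COX1, COX2 and COX3 make the catalytic core of complex IV, cytochrome c oxidase. COX1 was at 3966, 3565 and 5477 CPM in non-treated cells, 6157, 7661 and 5430 after ATRA, 6446, 6309 and 5571 after CDK4/6i, and 12468, 17087 and 17323 after CDK4/6i+ATRA. It was the only mRNA whose CDK4/6i libraries were all above the non-treated ones (30.8% of all tested genes were separated in this direction). Log2 fold changes were 0.57 (SE 0.10) after ATRA, 0.49 (SE 0.10, edgeR adjusted p = 1.71e-05, also called by DESeq2 but not by the robust fit) after CDK4/6i and 1.85 (SE 0.10, edgeR adjusted p = 9.96e-23) with both, the largest rise among the mRNAs. COX2 and COX3 rose by 1.33 and 1.19 with both drugs on the log2 scale.

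ATP6 and ATP8 encode subunits of the proton channel side of ATP synthase and lie on one mRNA with overlapping reading frames. ATP6 was at 1161, 1112 and 1617 CPM in non-treated cells, 1579, 2017 and 1446 after ATRA, 1413, 1427 and 1266 after CDK4/6i, and 2215, 3017 and 3082 after CDK4/6i+ATRA. The CDK4/6i+ATRA libraries alone were clear of the non-treated ones. Log2 fold changes with both drugs were 1.10 (SE 0.09) for ATP6 and 1.16 (SE 0.09) for ATP8, so the partners moved alike, although reads within the shared bases may be assigned to neither gene.

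Levels per kilobase of annotated length set the genes side by side. Reads lost to neighbouring genes or to nuclear copies can lower them, and the part of such losses in the order was not tested. In non-treated cells COX3 was highest at 3161 ± 652 CPM per kilobase, followed by COX1 at 2812 ± 654, COX2 at 2484 ± 440, RNR2 at 2111 ± 363, ATP6 at 1904 ± 408 and ND4 at 1694 ± 386 (SD, n = 3 each), and neighbours in this order differed by less than the larger SD of the pair, although each of the 3 libraries held the same order. CYTB at 852 ± 205, ND5 at 633 ± 164 and ND6 at 544 ± 113 CPM per kilobase were the lowest of the mRNAs other than ATP8, which was at 299 ± 59.4. ATP6 and ATP8 lie on one mRNA and yet differed this much, and over the length not shared with another gene they were at 2045 and 384. RNR1 was at 301 ± 42.2 CPM per kilobase, so the 16S rRNA gene had the far higher level of the 2. With CDK4/6i+ATRA, COX1 at 10133 ± 1775 and RNR2 at 9296 ± 1676 CPM per kilobase took the first places, followed by COX3 at 7215 ± 1280.

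Because all 20 tested genes rose with CDK4/6i+ATRA, the make-up of the mitochondrial transcripts was also described, with each gene's counts as a percent of the summed counts of the 13 mRNAs in the same library. This measure sets aside the common rise. COX1 held 24.4%, 23.6% and 24.6% in the non-treated libraries, 25.9%, 25.9% and 25.8% after ATRA, 29.0%, 29.0% and 29.0% after CDK4/6i, and 31.5%, 31.7% and 31.5% after CDK4/6i+ATRA. No group overlapped another, and the libraries of each treated group lay close together. RNR2 counts came to 18.5 ± 0.911 per 100 mRNA counts in non-treated cells, 22.6 ± 0.675 after ATRA, 17.9 ± 0.319 after CDK4/6i and 29.3 ± 0.449 after CDK4/6i+ATRA.

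Other mRNAs took a smaller percent. ATP6 went from 7.26% ± 0.103 of the mRNA counts in non-treated cells to 6.78% ± 0.123 after ATRA, 6.51% ± 0.122 after CDK4/6i and 5.60% after CDK4/6i+ATRA, where all 3 libraries gave 5.60%. ND3 went from 3.28% ± 0.325 to 2.66% ± 0.247, 2.86% ± 0.248 and 2.27% ± 0.174, and COX3 from 13.9% ± 0.293 to 12.7% ± 0.508, 12.04% ± 0.365 and 11.4% ± 0.0374, in the same order of groups. CYTB stood at 5.43% ± 0.133 in non-treated cells and 5.23% ± 0.0167 after CDK4/6i but at 6.59% ± 0.0494 after ATRA and 6.34% ± 0.0781 with both (SD, n = 3 throughout). The percents of the 13 mRNAs sum to a constant, so the gain of COX1 lowers the others: the other 12 together went from 75.8% to 68.4% with both drugs, a ratio of 0.903. Beside it, the ratios were 0.692 for ND3, 0.771 for ATP6, 0.803 for ATP8, 0.823 for COX3, 0.853 for ND4L and 0.862 for ND2, while COX2 at 0.902 moved as the other 12 together did, and ND1 at 0.948, ND4 at 0.938, ND5 at 1.01, ND6 at 1.03 and CYTB at 1.17 lay above it. With 3 libraries against 3, an exact permutation test of one such value cannot give a two-sided p under 0.10.

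**Figure D3:**
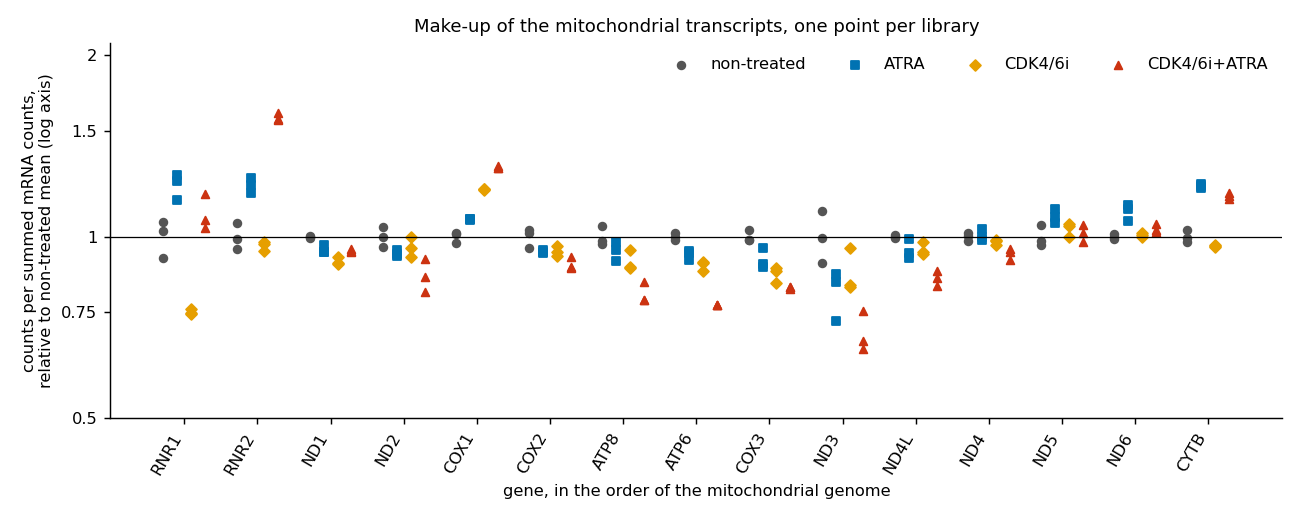
Counts of each rRNA and mRNA gene per summed counts of the 13 mRNAs in the same library, divided by the non-treated mean (log axis), in gene order and with one point per library. COX1 steps up from 1.07 after ATRA to 1.20 after CDK4/6i and 1.30 with both drugs, RNR2 reaches 1.58 and ND3 falls to 0.69 with both.

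The same question was put to edgeR with the summed mRNA counts of the mitochondrial genome in place of the library size, a fit added after the data were seen, in which the common rise is removed by construction and standard errors were larger. In CDK4/6i+ATRA against non-treated cells, RNR2 was higher than the mRNAs as a whole by 0.66 (SE 0.17, edgeR adjusted p = 0.000139), COX1 by 0.38 (SE 0.16, edgeR adjusted p = 0.0246, not called by the robust fit) and ND3 was lower, at -0.53 (SE 0.20, edgeR adjusted p = 0.0101), all on the log2 scale. Against CDK4/6i alone, RNR2 at 0.71 and RNR1 at 0.54 were higher and TRNN at -0.52 and TRNP at -0.95 lower. Against ATRA alone, RNR2 at 0.38, TRNN at 0.60 and TRNP at 0.85 were higher, the first not under the robust fit. These calls of COX1 and of RNR2 against ATRA were also lost when 1 of several libraries was left out. The other members passed in none of these comparisons. Spread and adjusted p-values of this fit were taken over all tested genes, most of them nuclear, and the share of these called is not given here. COX1 after CDK4/6i held 29.0% of the mRNA counts in each library, against 23.6% to 24.6% in non-treated cells. It was not called in this fit (edgeR adjusted p = 0.245), so passing or not does not measure the make-up within libraries.

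Counts on tRNA genes were few. Of the 22 tRNA genes, 17 did not pass the filter, with at most 10 counts in any library, and 4 of them (TRNA, TRNS2, TRNG and TRNR) had no count in any library. The 5 that passed were TRNP with 10173 counts over the 12 libraries, TRNN with 5244, TRNC with 3883, TRNY with 457 and TRNL1 with 440. TRNP borders the control region, where 1122 bases hold no annotated gene, TRNN and TRNC face each other across the 31 bases printed above, and TRNY lies 12 bases from COX1. TRNF borders the control region on its other side and had at most 1 count in a library, so a wide neighbouring gap did not go with counts in every case. Of the 8 tRNA genes on the ND6 strand 4 passed, and of the 14 on the other strand 1 did. Counts on a tRNA gene may come from longer RNAs that reach into it rather than from mature tRNA, and the part of each was not tested.

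TRNP separated the drugs most. Its level was 31.6, 28.9 and 33.1 CPM in non-treated cells, 27.2, 27.3 and 22.8 after ATRA, 80.7, 77.5 and 72.6 after CDK4/6i, and 79.7, 93.6 and 106.6 after CDK4/6i+ATRA. The ATRA libraries all lay below the non-treated ones, and the libraries of both CDK4/6i groups lay well above them. The log2 fold change was -0.28 (SE 0.08, edgeR adjusted p = 0.00245, not called by DESeq2) after ATRA, 1.30 (SE 0.07, edgeR adjusted p = 1.35e-21) after CDK4/6i and 1.58 (SE 0.07, edgeR adjusted p = 1.79e-25) with both. CDK4/6i+ATRA exceeded CDK4/6i by 0.28 (SE 0.06, edgeR adjusted p = 0.000124), the smallest of the 20 differences in that comparison, with 1 library of each group overlapping, and under library size alone this difference was not called.

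TRNN was at 16.9, 12.2 and 17.9 CPM in non-treated cells, 18.1, 20.3 and 14.5 after ATRA, 32.9, 34.2 and 31.0 after CDK4/6i, and 46.6, 60.6 and 52.3 after CDK4/6i+ATRA. TRNC was at 14.1, 8.78 and 12.4 CPM, 14.2, 16.4 and 12.7 CPM, 23.1, 21.1 and 22.8 CPM, and 32.0, 40.9 and 46.1 CPM in the same order of groups. Neither separated ATRA from non-treated libraries, although TRNC was called higher with ATRA, at 0.29 (SE 0.12, edgeR adjusted p = 0.0345), but not by all 3 methods. Each rose with CDK4/6i alone, by 1.06 (SE 0.10, edgeR adjusted p = 4.22e-13) for TRNN and by 0.92 (SE 0.11, edgeR adjusted p = 1.36e-09) for TRNC on the log2 scale. TRNP, TRNN and TRNC were the only members called with CDK4/6i by edgeR, its robust fit and DESeq2 alike. They also stood out relative to the mitochondrial mRNAs, by 1.04 (SE 0.23), 0.82 (SE 0.23) and 0.67 (SE 0.23) in that order on the log2 scale, while after ATRA TRNP was at -0.76 (SE 0.23) on this measure.

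**Figure D4:**
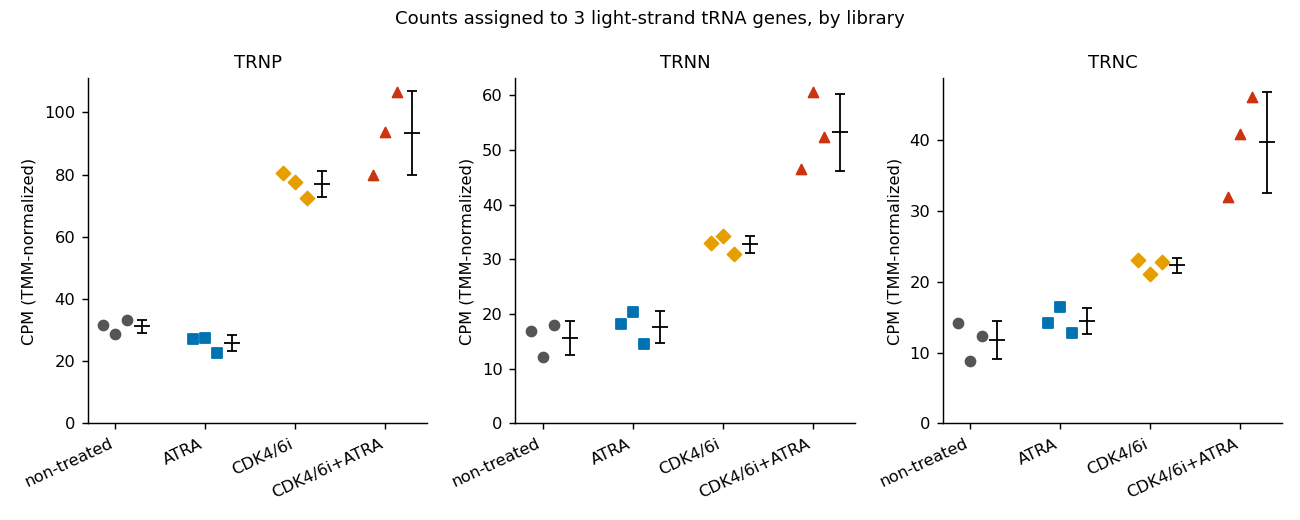
TMM-normalized CPM of TRNP, TRNN and TRNC in each library, with the group mean ± SD (n = 3) in black. CDK4/6i libraries lie above the non-treated and ATRA libraries for each gene, and TRNP is lowest with ATRA, at 22.8 to 27.3 CPM.

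The rise with both drugs was larger than the sum of the single-drug changes for nearly all tested members. The interaction, which subtracts the log2 changes of both single drugs from that of the combination, was called and above 0 for 19 of the 20 (51.4% of all tested genes were called, 24.5% above 0). It was 1.18 (SE 0.12, edgeR adjusted p = 1.15e-11) for RNR2, 1.00 (SE 0.10, edgeR adjusted p = 2.15e-12) for RNR1 and 0.63 to 0.89 for the 13 mRNAs, with a median of 0.70, while all tested genes had a median of -0.02. TRNL1, the member with the fewest counts among those tested, was at 0.68 (SE 0.41, edgeR adjusted p = 0.17). DESeq2 called 12 (48.1% of all tested genes) and edgeR's robust fit 11 (51.6%), and the 10 members that all 3 methods called were both rRNAs, COX1, COX2, COX3, CYTB, ND1, ND3, TRNP and TRNY. Under library size alone 14 were called, all above 0, without TRNP, TRNY, TRNN, TRNC and ND5, and the mRNA median was 0.38, where that of all tested genes was -0.34. Relative to the summed mitochondrial mRNAs none was called, and none had an unadjusted p under 0.05 in edgeR or its robust fit, although standard errors were larger there and the fit cannot show that the members departed from additivity alike.

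The genome also carries nuclear copies of mitochondrial genes, which can take or lend reads. The count table listed 482 such copies on other chromosomes, of which 80 had a count and 16 passed the filter. Together they held 96843 counts, 1.55% of the counts on chrM itself. Of the 16, 15 were called higher with CDK4/6i+ATRA than in non-treated cells, with a median log2 fold change of 1.52, beside 41.0% of all tested genes called higher. MTCO1P12 on chromosome 1, a copy of COX1, rose by 1.77 and MTRNR2L12 on chromosome 3, a copy of RNR2, by 1.99, beside 1.85 for COX1 and 2.14 for RNR2. Reads of COX1 may be assigned to such copies, since 27.9% of its 100-base windows occurred on a nuclear chromosome, as did 26.1% of those of ND2, 11.9% of ATP6 and smaller shares of ND1, COX3 and COX2, whereas CYTB, ND3, ND4, ND4L, ND5, ND6, ATP8 and RNR2 had none. The copies amounted to 1.72% to 1.79% of chrM counts in non-treated libraries and 1.41% to 1.46% after CDK4/6i+ATRA, and the part of read sharing in any change was not tested.

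Nuclear genes whose products act on the mitochondrial genome were described by lists. Of 8 tested genes in a list for transcription of the mitochondrial genome, which also holds the helicase gene TWNK, 6 fell and none rose in cells given both drugs relative to non-treated cells, with a median log2 fold change of -1.11 beside 0.02 for all tested genes. Of all tested genes 40.7% were called lower and 41.0% higher in this comparison, the background for the counts of every nuclear list that follows. POLRMT, the mitochondrial RNA polymerase, went from 113 ± 6.28 to 50.2 ± 3.21 CPM (SD, n = 3 each), a log2 fold change of -1.18 (SE 0.06, edgeR adjusted p = 1.8e-24). TFAM, which packages the DNA and helps to start transcription, changed by -1.05, TFB2M, the initiation factor, by -1.37, and TWNK, the replicative helicase, by -2.32. TEFM, the elongation factor, was at 14.8 ± 1.47 and 14.9 ± 0.937 CPM, with a log2 difference of 0.01 (SE 0.10, edgeR adjusted p = 0.948). With CDK4/6i alone POLRMT was not called, at 0.02, and with ATRA alone it fell by 1.00 on the log2 scale. With ATRA alone the list had 6 lower and 0 higher of 8 (median -0.73), and with CDK4/6i alone 4 lower and 1 higher (median -0.09). Of all tested genes, 35.5% were lower and 32.1% higher with ATRA, and 27.9% lower and 28.3% higher with CDK4/6i.

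Of 21 tested genes of RNA processing and stability, 19 fell and 1, ANGEL2, rose with CDK4/6i+ATRA, with a median of -0.98. LRPPRC, which binds and stabilises mitochondrial mRNAs, went from 815 ± 17.3 to 212 ± 5.33 CPM, a log2 fold change of -1.94 (SE 0.04, edgeR adjusted p = 2.6e-39), and its partner SLIRP changed by -1.41. SUPV3L1, a helicase of mitochondrial RNA decay, changed by -1.96 and REXO2, which degrades short RNA fragments, by -2.03.

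Among 20 tested genes of tRNA modification, 15 fell and 2 rose (median -1.11). GTPBP3, which modifies wobble uridines, changed by -2.81, and NSUN3, which modifies the methionine tRNA, rose by 1.27 on the log2 scale. Among 21 genes of rRNA modification and ribosome assembly, 17 fell and 1 rose (median -0.84). YBEY, at 2.49 and 6.94 CPM and named after its values were seen, was the one that rose. TFB1M, which methylates the 12S rRNA, was at -1.68 and RBFA, a small subunit maturation factor, at -3.86. Of 20 genes of DNA replication and maintenance, 13 fell and 4 rose (median -0.79). POLG, the polymerase, was at -0.47 and SSBP1, the single-strand binding protein, at -0.79, while TK2 at 2.28 and RRM2B at 1.37, which supply nucleotides outside S phase, rose. DNA2 at -3.84, a nuclease of replication, and ATAD3A at -3.58, an inner membrane protein bound to nucleoids, fell most.

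Of 9 tested regulators of mitochondrial biogenesis, 6 fell and 2 rose (median -0.46). MYC, a growth regulator in this list, changed by -3.94. The coactivators PPRC1 and PPARGC1B changed by -1.47 and -1.45, ESRRA rose by 0.52, and PPARGC1A had 3 counts over all libraries and was not tested. Genes of general organelle function fell in 19 of 20 cases (median -1.16), with HSPE1, the matrix co-chaperonin, at -3.38 and TOMM40, the import channel of the outer membrane, at -2.73. One gene, MFN1, rose. The falls were not particular to the combination. In the order given, from RNA processing to organelle function, list medians with ATRA alone were -0.63, -0.65, -0.52, -0.39, -0.11 and -0.73. With CDK4/6i alone they were -0.05, -0.12, -0.14, -0.17, -0.33 and -0.12. All tested genes had medians of -0.03 and 0.02.

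The nuclear partners of the mitochondrial subunits changed less. With CDK4/6i+ATRA, 23 of 35 nuclear complex I genes fell and 6 rose (median -0.29), as did 7 and 2 of 9 for complex III (median -0.29) and 12 and 3 of 18 for complex V (median -0.33). Complex II, which has no mitochondrially encoded subunit, had 3 lower and 1 higher of 4. Complex IV had 6 higher and 4 lower of 11 and a median of 0.19, beside the 41.0% higher and 40.7% lower of all tested genes. NDUFA4 rose most there, from 126 ± 2.50 to 268 ± 19.9 CPM (log2 fold change 1.10, SE 0.05, edgeR adjusted p = 1.3e-26), and COX5A fell by 0.58 on the log2 scale. In complex V, ATP5MC1, which encodes the c subunit of the rotor, changed by -2.08. The mitochondrially encoded mRNAs of the same complexes had log2 fold changes of 0.96 to 1.85.

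**Figure D5:**
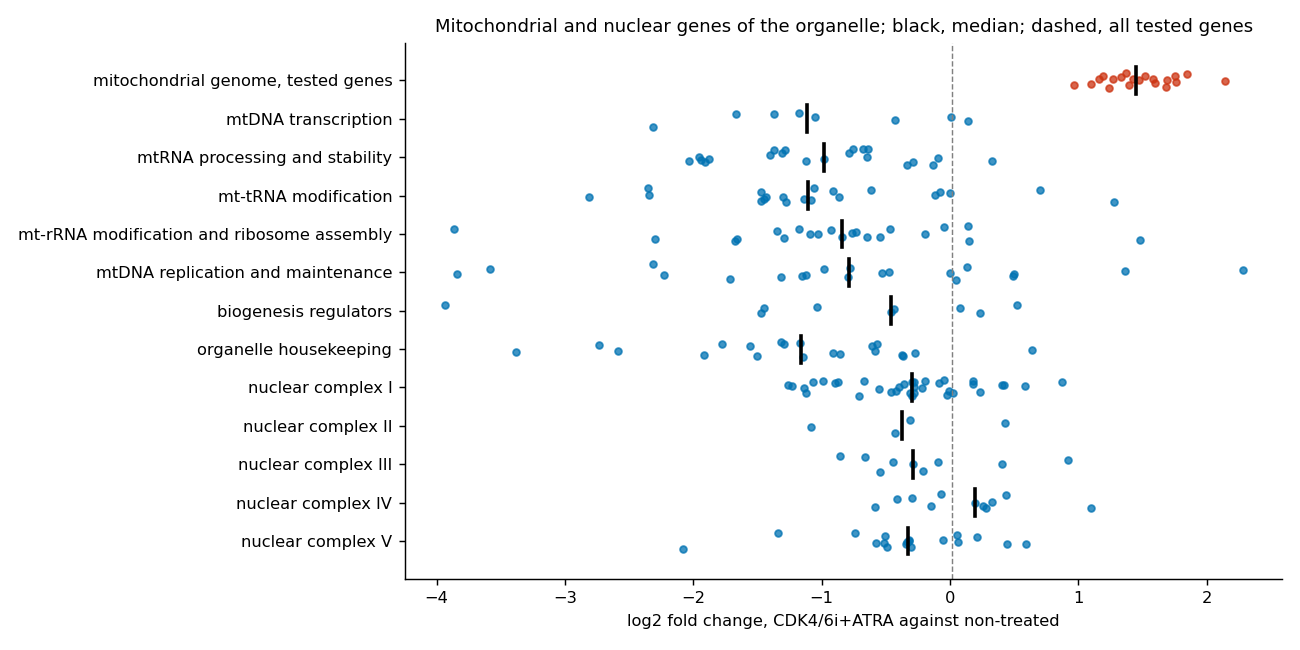
Log2 fold change of each tested gene in CDK4/6i+ATRA against non-treated cells (x axis), for the 20 tested mitochondrial genes (red) and for lists of nuclear genes of the organelle (blue), with list medians as black bars and the median of all tested genes as a dashed line. The mitochondrial genes lie between 0.96 and 2.14, and list medians of nuclear genes run from -1.16 to 0.19.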

How the data were processed

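RNA-Seq was performed on 12 libraries, prepared by the authors from total RNA with a directional kit. Per the labels and the paper's methods, reads were trimmed with Trimmomatic 0.33 and aligned to hg38 with STAR 2.7.11a under the NCBI RefSeq annotation. The deposited values are whole-number counts per gene, not normalized. The paper names RSEM, whereas the deposited table has the layout of featureCounts. Strand use in counting and any poly(A) selection or rRNA depletion are not given in the sources used here. Genes lying wholly within exons of another gene with at least 1000 counts had no count (0 of 94 on the opposite strand, 0 of 422 on the same strand).

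Counts were filtered with filterByExpr on the 4 groups, scaled by TMM and fitted as group means over all 12 libraries by the quasi-likelihood test of edgeR 4.0.16 (R 4.3.3), with Benjamini-Hochberg adjustment over 13318 genes, 8 residual degrees of freedom and 0.05 as the threshold. Biological variation between replicates came to a coefficient of 3.70% over all genes. P-values of the fit also rest on the spread of other genes. A run on simulated counts gave every gene about this variation, so it does not cover genes of wider spread such as COX1, and its outcome is not given here. Shares and ratios were taken from raw counts and described without a test. Intervals of depth cover counting error only. Windows of 100 bases were searched exactly, on both strands, in the nuclear chromosomes of hg38. Start and end of all 37 genes matched RefSeq.

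Members, gene lists and rules were chosen with earlier results of these data known. All mRNA and rRNA genes and the tRNA genes past the filter are named. Nuclear genes were named by fixed symbols or as the 2 largest rises and falls of a list in CDK4/6i+ATRA against non-treated cells among called genes of at least 5 CPM, and only some of these are described. Alternatives were DESeq2 1.42.0, its size factors, library size alone, TMM without chrM, other filters, the replicate block, only the groups compared and leaving out each library. The robust fit and the scaling to mitochondrial mRNAs were added after seeing the data. The table held 0 columns of samples outside the series.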

Additional observations from a re-analysis of the deposited data

Results flagged for a closer look

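The response to ATRA differed between cells given CDK4/6i and cells without it for 13 mRNA genes, 2 rRNA genes and 4 tRNA genes of the mitochondrial genome, by the interaction term of edgeR at an adjusted p-value under 0.05, in a comparison where 51.4% of all tested genes were called and 24.5% were above 0. DESeq2 called 12 of these members and edgeR's robust fit 11. The largest difference was 1.20 for TRNY on the log2 scale (SE 0.39, edgeR adjusted p = 0.0077), a gene with 16 to 60 counts per library, and the smallest was 0.54 for TRNN (SE 0.14, edgeR adjusted p = 0.00109). Groups of 3 libraries are too small for the screen for single outlying values, so non-treated replicate 3 was not tested by it.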

How the results depend on the processing

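The 20 calls for the combination relative to non-treated cells and to ATRA were made under every alternative run (19 of 19 where 10 counts were required in every library, which left out TRNL1), and those against CDK4/6i likewise except under library size alone (19 of 20). With ATRA, calls numbered 16, but 10 with DESeq2 and 7 with edgeR's robust fit, and 15 to 18 when single libraries were left out. With CDK4/6i, calls numbered 7, but 4 with DESeq2, 3 with the robust fit, 13 without a low-count filter and 13 with only the groups compared, and 4 to 17 when single libraries were left out. The interaction called 19, but 12 with DESeq2, 11 with the robust fit and 14 under library size alone, and 18 to 20 when single libraries were left out. Values that changed sign when 1 library was left out were not called in the first place: for CDK4/6i against non-treated cells, the log2 fold change ranged from -0.0825 to 0.21 for COX3, from -0.0085 to 0.29 for ND1, from -0.0223 to 0.27 for ATP6 and from -0.064 to 0.17 for ND3, and for ATRA from -0.0117 to 0.7798 for TRNL1 and from -0.3955 to 0.1911 for TRNY. Under library size alone, the all-gene median of the combination went to -0.25, -0.28 and -0.26 against non-treated, CDK4/6i and ATRA, and the share of calls that were higher went from 50.2% to 40.5%, from 49.8% to 36.7% and from 53.0% to 31.6% (47.5% to 18.5% for the interaction). The share of counts on chrM counted over mRNA genes only was 1.85% in non-treated cells, 2.64% after ATRA, 2.20% after CDK4/6i and 4.25% with both, and without the 10 most abundant nuclear genes it was 2.37% in non-treated cells, 3.50% after ATRA, 2.85% after CDK4/6i and 6.11% with both. Relative to ND5 alone, ND6 stood at 25.1% in non-treated cells, 25.5% after ATRA, 24.5% after CDK4/6i and 25.5% with both. The replicate block called 16, 8 and 19 for ATRA, CDK4/6i and the interaction, and 20 for the others. Libraries of the same number did not deviate together (correlations of -0.12 to 0.08 over 18 pairs), so the numbers do not pair the libraries. Depth left 17 tRNA genes, with at most 10 counts in a library, untested. The cause of the differences between methods was not tested.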
